A study of Mus musculus with 10 samples.

Results

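Ribonucleases H cut the RNA strand of an RNA:DNA hybrid, and mammalian cells carry 2 forms of the enzyme. Their 4 genes were read here in RNA-seq of E14, a line of mouse embryonic stem cells. The members were the rows whose Ensembl identifier belongs to Rnaseh1, Rnaseh2a, Rnaseh2b or Rnaseh2c, and all 4 were found among 55487 genes. The series maps R-loops, in which RNA pairs with one DNA strand, with an RNase H domain fused to a nuclease. It holds 10 samples in 6 groups, and its R-loop libraries were not analysed here. The values come from the RNA-seq group of 3 replicates, unperturbed cells kept with 15% serum, LIF, a GSK inhibitor at 3 µM and a MEK1/2 inhibitor at 1 µM. All samples are of that line, so levels were compared between genes and replicates, with no contrast between conditions. The labels do not say whether replicates were separate cultures, so the spread between them may be technical.

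RNase H1 is a single polypeptide that cuts hybrids with a run of ribonucleotides, in the nucleus and in mitochondria, where it is needed to replicate mitochondrial DNA. RNase H2 is a complex of 3 subunits. RNASEH2A holds the active site, while RNASEH2B and RNASEH2C form a scaffold that the activity requires. RNase H2 also cuts at single ribonucleotides left in DNA, the first step of ribonucleotide excision repair, and is essential for mouse development. Variants of its subunit genes cause Aicardi-Goutières syndrome, an inflammatory disease of the brain.

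Rnaseh1 (ENSMUSG00000020630) lies on chromosome 12 at 28649602 to 28659589 on the plus strand of GRCm38. Rnaseh2a (ENSMUSG00000052926) lies on chromosome 8 at 84956610 to 84969767 on the minus strand. Rnaseh2b (ENSMUSG00000021932) lies on chromosome 14 at 62292589 to 62372992 on the plus strand. Rnaseh2c (ENSMUSG00000024925) lies on chromosome 19 at 5601873 to 5607019, also on the plus strand. The 4 genes are thus unlinked, and the annotation holds no other gene with a name starting Rnaseh.

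RefSeq promoter sequence (GRCm38.p6, 250 bases before to 50 after the start) was matched for 2 of the 4 genes, Rnaseh2a and Rnaseh2c. The source held no window for Rnaseh1 or Rnaseh2b, so only these are shown. Whether promoter letters bear on the level of a gene was not tested. Capitals mark the GC box GGGCGG and the CCAAT box CCAAT, searched on both strands; the TATA box TATAAA was searched too. The 1st window is chr8:84966027-84966326 on the minus strand and the 2nd is chr19:5601623-5601922 on the plus strand.
Rnaseh2a: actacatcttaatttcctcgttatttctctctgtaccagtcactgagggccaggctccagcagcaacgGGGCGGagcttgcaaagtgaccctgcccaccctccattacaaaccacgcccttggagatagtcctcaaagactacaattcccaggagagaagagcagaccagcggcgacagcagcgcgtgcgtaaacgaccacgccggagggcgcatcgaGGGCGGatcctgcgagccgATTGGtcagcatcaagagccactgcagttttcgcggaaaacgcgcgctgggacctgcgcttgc
Rnaseh2c: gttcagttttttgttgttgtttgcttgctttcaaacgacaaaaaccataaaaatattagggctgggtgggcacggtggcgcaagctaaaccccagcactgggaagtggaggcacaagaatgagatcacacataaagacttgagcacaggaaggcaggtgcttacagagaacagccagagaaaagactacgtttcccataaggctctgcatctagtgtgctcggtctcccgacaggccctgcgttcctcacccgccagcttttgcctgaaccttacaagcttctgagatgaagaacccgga

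The Rnaseh2a window held 2 GC boxes, beginning 182 and 32 bases before the start, and 1 CCAAT box on the opposite strand, 13 bases before it. This window includes the annotated start of a coding transcript at 84966041. The longest coding transcript of Rnaseh2a, of 2981 nt, starts at 84969740, outside the window, and the sequence there was not read. The Rnaseh2c window held none of the 3 motifs, and neither window held a TATA box. Of 32851 windows of this length in the table, 35.7% held a GC box, 37.4% a CCAAT box and 13.6% a TATA box. The Rnaseh2a window had 23 CpG dinucleotides and a GC content of 58.3%. The Rnaseh2c window had 9 CpG and 49.7%, and the medians over all windows were 7 and 52.7%. These matches describe letters and are not evidence of binding.

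The RNA-seq libraries held from 5787357 to 11420425 estimated counts, with replicate 1 the deepest. Estimated counts are reads assigned to a gene, with reads that match several genes divided among them. Of 21974 protein-coding genes, 44.1% reached a mean TPM of 1, where TPM is the count divided by effective length and scaled to the same total in each library. The 5 stem cell markers Pou5f1, Nanog, Sox2, Zfp42 and Esrrb were all above that level, with a summed TPM from 420.8 to 558.8. No fibroblast, endoderm or mesoderm marker reached it (0 of 5 in each list), with summed TPM of 0.15 to 0.2, 0.3 to 0.75 and 1.16 to 1.55. The mesoderm marker Eomes came nearest, at 0.97, 1.05 and 0.84 TPM from 78, 62 and 52 counts in replicates 1, 2 and 3. Col3a1, Dcn and Foxa2 were at 0 counts in every replicate. Of 5 neural markers, Tubb3 alone reached a mean of 1, at 14.2, 9.34 and 11.3 TPM in replicates 1, 2 and 3. The neural sum ran from 10.7 to 16.2 TPM. Sox1, Map2 and the endoderm marker Gata4 had means of 0.733, 0.617 and 0.45 TPM. These marker counts hold for deposited TPM, of which genes of effective length under 100 nt held from 60.3% to 65.8%. Over longer genes alone every marker value above 0 would be higher, and the lists were not counted on that scale. In bulk RNA, fewer cells expressing a gene and less RNA per cell cannot be told apart.

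Rnaseh1 had the lowest TPM of the 4 genes in every replicate. It had 88, 53 and 43 estimated counts in replicates 1, 2 and 3, and the exact Poisson 95% intervals were 70.6 to 108.4, 39.7 to 69.3 and 31.1 to 57.9. Intervals here come from the count of a single library and cover counting error only. PCR copies are not separate molecules, so the intervals can be too narrow. Its TPM was 2.40, 2.28 and 1.64, a mean of 2.11 ± 0.409 (SD, n = 3). Replicate 3 was lowest, and its interval of 1.19 to 2.21 TPM overlapped those of replicate 1, 1.92 to 2.96, and replicate 2, 1.71 to 2.98. Among the 9683 protein-coding genes with a mean TPM of at least 1, Rnaseh1 lay at the 17.3 percentile.

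Rnaseh2a, the gene of the catalytic subunit, had the highest TPM. It had 733.7, 455.8 and 411.8 estimated counts and 40.6, 32.3 and 32.95 TPM in replicates 1, 2 and 3. The mean was 35.3 ± 4.59 TPM (SD, n = 3), at the 91.9 percentile of expressed protein-coding genes. Replicate 1 stood above the other two, which lay within each other's counting intervals. Rnaseh2a was the one member with estimated counts that were not whole, in 3 of 3 replicates, as the estimator gives where reads are divided between genes. Of expressed protein-coding genes, 10.9% had such counts in every replicate and 16.8% in at least 1, with a count taken as whole within 0.005.

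Rnaseh2b encodes a scaffold subunit that also binds PCNA, the sliding clamp of DNA replication. It had 800, 437 and 417 estimated counts and 28.3, 26.6 and 22.4 TPM in replicates 1, 2 and 3. The mean was 25.8 ± 3.01 TPM (SD, n = 3), at the 88.5 percentile. Every replicate of Rnaseh2b was below every replicate of Rnaseh2a in TPM, although their summed counts were close, 1654 for Rnaseh2b and 1601 for Rnaseh2a.

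Rnaseh2c, the gene of the other scaffold subunit, was the lowest of the complex. It had 79, 50 and 62 estimated counts, with Poisson intervals of 62.5 to 98.5, 37.1 to 65.9 and 47.5 to 79.5. Its TPM was 11.1, 8.74 and 8.83, a mean of 9.55 ± 1.33 (SD, n = 3), at the 67.1 percentile. Rnaseh2c and Rnaseh1 therefore rested on similar reads, 191 and 184 counts summed over the replicates, and on different lengths. The lengths are compared below.

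**Figure D1:**
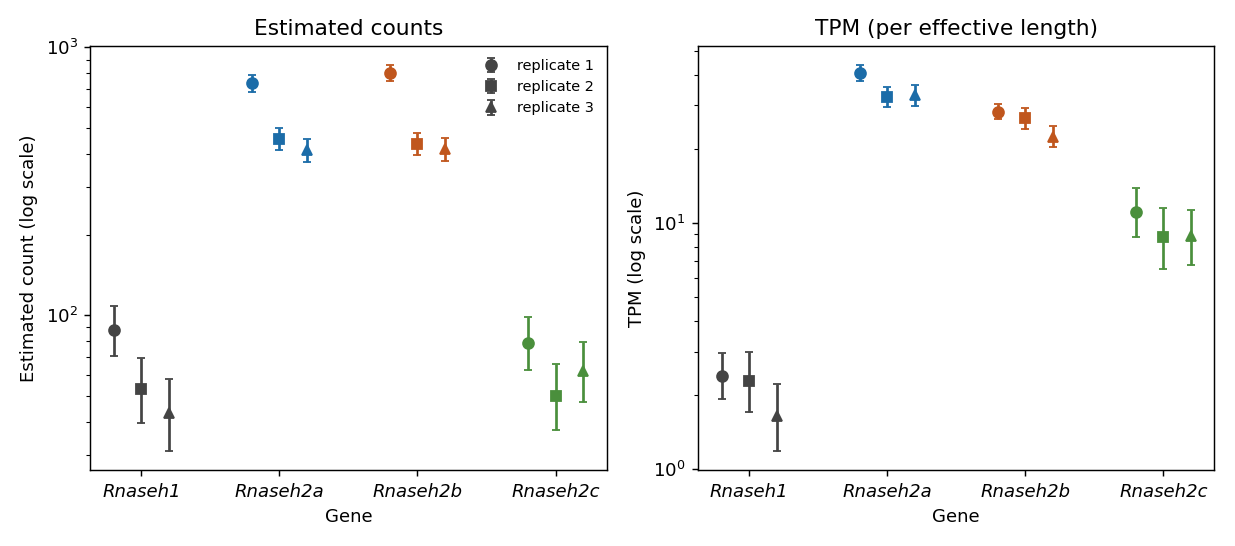
Estimated counts (left, log scale) and TPM (right, log scale) of the 4 RNase H genes; each symbol is 1 replicate and bars are exact Poisson 95% intervals of the rounded count, scaled to TPM on the right. Rnaseh1 and Rnaseh2c overlap in counts, where both have fewer than 100, while in TPM the 4 genes form separate levels from Rnaseh1 (1.64 to 2.40) to Rnaseh2a (32.3 to 40.6).

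The first comparison set each RNase H2 subunit against Rnaseh1 within each library, where the 2 TPM values share one denominator. The Rnaseh2a to Rnaseh1 ratio was 16.9, 14.2 and 20.1 in replicates 1, 2 and 3, or 4.08 ± 0.25 (SD, n = 3) on the log2 scale. For Rnaseh2b the log2 ratio of TPM was 3.62 ± 0.13 (SD, n = 3), and for Rnaseh2c it was 2.19 ± 0.25 (SD, n = 3). All 3 subunits were above Rnaseh1 in 3 of 3 replicates. The exact sign permutation test over replicates (two-sided) gave p = 0.25 for each of the 6 pairs of members, adjusted p = 0.25 by Benjamini-Hochberg, the smallest that 3 replicates allow. No pair can therefore pass a threshold of 0.05 in this design, and the ratios are given with their spread.

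Within the complex, Rnaseh2a exceeded Rnaseh2b by 0.45 ± 0.15 (SD, n = 3) in log2 TPM, a fold of 1.44, 1.22 and 1.47 in replicates 1, 2 and 3. Rnaseh2a exceeded Rnaseh2c by 1.89 ± 0.01 (SD, n = 3), and Rnaseh2b exceeded Rnaseh2c by 1.43 ± 0.15 (SD, n = 3). The ratio of Rnaseh2a to Rnaseh2c varied little, from 3.66 to 3.73, less than its counting error: the exact binomial 95% interval in replicate 1 ran from 2.90 to 4.68. The close match of the 3 ratios is thus finer than these counts can resolve.

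The TPM order depended on the length assigned to each gene. RSEM, the estimator named in the submitters' processing notes, gives a gene the mean length of its transcripts weighted by their estimated abundance. Rnaseh1 was listed at 1491, 1372 and 1511 nt in replicates 1, 2 and 3, close to its protein-coding transcript of 1455 nt. Rnaseh2c was listed at 399.6, 447.99 and 502.4 nt, although its transcript in the consensus coding set has 1126 nt. Its other annotated transcripts, all outside that set, have 271, 393, 707, 771 and 869 nt. The listed length was closer to the coding record of 393 nt than to the 1126 nt transcript in every replicate. Only 0.723% of expressed protein-coding genes had a shorter mean length.

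Rnaseh2a, with 10 annotated transcripts, was listed at 804.1, 889.97 and 791.3 nt, against 2981 nt for its longest coding transcript. That is 27.8% of the longest coding length on average, and 1.95% of expressed protein-coding genes had a smaller share. Rnaseh2c stood at 39.96%, Rnaseh2b at 73.8% and Rnaseh1 at 100.2%, beside a median of 80.1% over those genes. Rnaseh2b was listed at 1181, 1013 and 1113 nt. Its 4 transcripts run from 362 nt, for a coding record outside the consensus coding set, to 4983 nt, for one with a retained intron. Between replicates the listed length moved most in Rnaseh2c, by a factor of 1.26 from lowest to highest, and least in Rnaseh1, by 1.10. The tables give no estimate per transcript, so which transcripts moved was not tested.

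**Figure D2:**
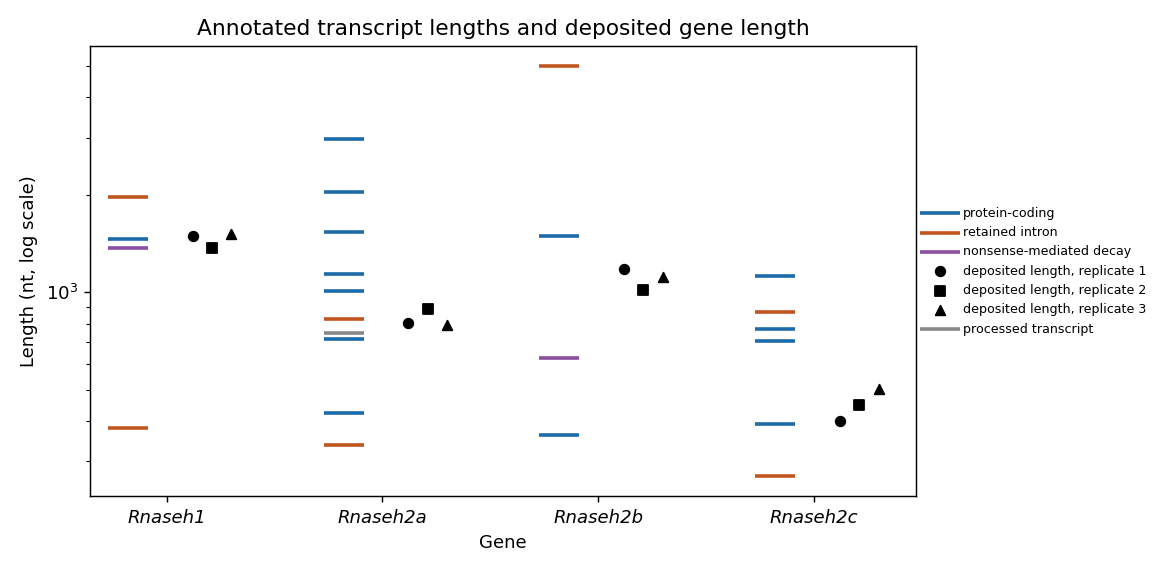
Lengths of the annotated transcripts (dashes, coloured by transcript type) and the deposited gene length in each replicate (black symbols), in nt on a log scale, for the 4 RNase H genes. The Rnaseh2c symbols (399.6 to 502.4 nt) lie far below its 1126 nt coding transcript, and the Rnaseh1 symbols (1372 to 1511 nt) lie around its 1455 nt coding transcript.

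With counts divided by the longest protein-coding transcript, the distance between Rnaseh2c and Rnaseh1 shrank. The log2 ratio went from 2.19 to 0.47 ± 0.38 (SD, n = 3), a fold of 1.16, 1.22 and 1.86 in replicates 1, 2 and 3. The exact binomial 95% intervals of these folds were 0.845 to 1.59, 0.812 to 1.83 and 1.24 to 2.82, so the first 2 include equality and replicate 3 alone does not. Rnaseh2c remained above Rnaseh1 in 3 of 3 replicates under each of the 6 other scalings tried, with log2 ratios from 0.47 to 1.80. Its excess over Rnaseh1 is thus of uncertain size.

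The order of Rnaseh2a and Rnaseh2b turned with the length. Per longest protein-coding transcript, Rnaseh2a had 23.02 ± 1.28 CPM per kb (counts scaled by library total and length; SD, n = 3) and Rnaseh2b 46.8 ± 1.5 (SD, n = 3), a log2 ratio of -1.02 ± 0.09 (SD, n = 3). Per median transcript of the consensus coding set the ratio was -0.48 ± 0.09 (SD, n = 3). It was positive in 3 of 3 replicates per nominal deposited length (0.38), per median annotated transcript (0.18) and per union of annotated exons (0.80). Which of the 2 genes had more transcripts is therefore not settled by these tables. Both exceeded Rnaseh1 and Rnaseh2c in every replicate under all 7 scalings, by folds that depended on the length.

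The mean fold of Rnaseh2a over Rnaseh1 went from 16.9 in TPM to 6.28 per consensus coding transcript and 4.31 per longest protein-coding transcript. That of Rnaseh2b over Rnaseh1 went from 12.3 in TPM to 8.76 with either of those lengths and 3.72 per union of exons. Within the complex, Rnaseh2a over Rnaseh2c ran from 3.12 (longest protein-coding transcript) to 6.65 (median annotated transcript), and Rnaseh2b over Rnaseh2c from 2.31 (union of exons) to 6.34 (both coding lengths).

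**Figure D3:**
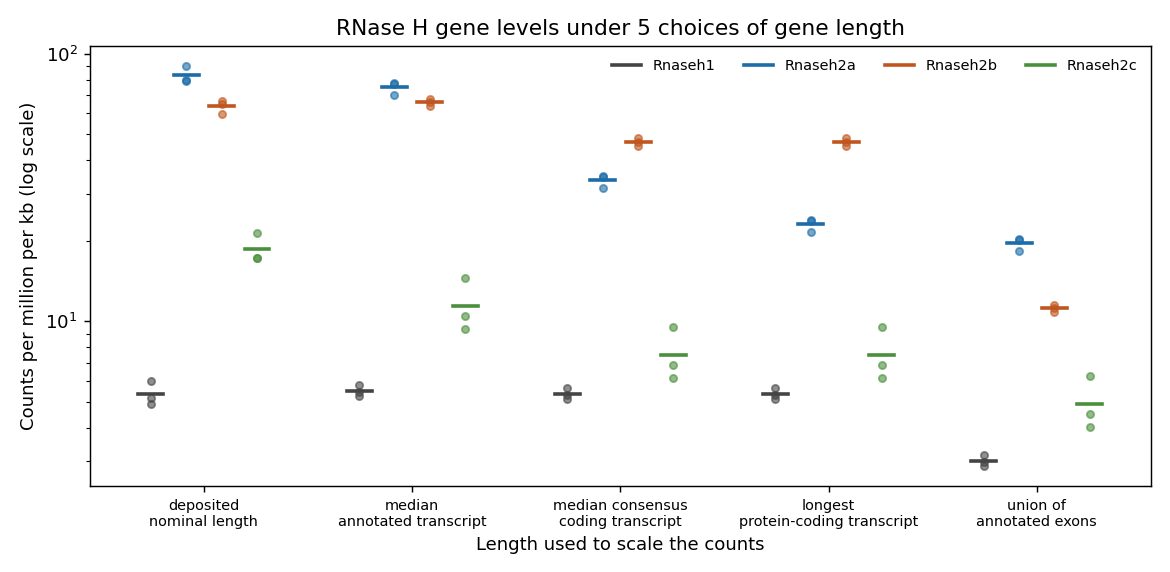
CPM per kb (log scale) of the 4 RNase H genes under 5 choices of length; points are the 3 replicates and bars their mean. Rnaseh2a is above Rnaseh2b except with the consensus coding and longest protein-coding lengths, and Rnaseh1 is lowest throughout, next to Rnaseh2c.

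The level from one replicate to the next also depended on the scale. In TPM, all 4 genes were highest in replicate 1, and replicate 3 was below replicate 1 by 0.30 (Rnaseh2a) to 0.55 (Rnaseh1) in log2. Over the expressed protein-coding genes with TPM above 0 in every replicate (n = 9675) the median log2 TPM moved by -0.62 between the same replicates. With TMM-scaled CPM per kb, a scale that balances most genes between libraries, that median moved by 0.02. Replicate 3 was then above replicate 1 by 0.10 in Rnaseh1, 0.31 in Rnaseh2b, 0.31 in Rnaseh2c and 0.34 in Rnaseh2a, as close together as in TPM. This change of scale multiplies every gene of a library by the same factor. The 4 genes and the median gene therefore had to move alike. Against the median shift of 0.02, Rnaseh2a, Rnaseh2b and Rnaseh2c rose by 0.31 to 0.34 and Rnaseh1 by 0.10. The order of the replicates turned with the scale, so it is not read as a result about these genes. Genes of effective length under 100 nt held from 60.3% to 65.8% of TPM, and their part in these shifts was not tested.

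Variation between replicates was tested with edgeR's goodness-of-fit test, which sets each gene against the spread of genes of similar abundance. Of 12577 genes tested, 232 (1.84%) varied beyond the trend at a Benjamini-Hochberg adjusted p under 0.05, and 0 of the 4 RNase H genes did. At an unadjusted p under 0.05, 875 genes (6.96%) and again 0 of 4 members passed. Rnaseh2c came closest, with an unadjusted p of 0.143 (edgeR), from 6.92, 7.73 and 10.7 CPM in replicates 1, 2 and 3. With a smooth trend in gene length removed, Rnaseh2c had an unadjusted p of 0.705 (edgeR), and 175 genes and 0 members were called. With DESeq2 size factors 231 genes and 0 members were called. In simulated libraries the same test recovered 7 of 50 genes changed 2-fold in one replicate and 38 of 50 changed 4-fold, so smaller shifts would go unseen.

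Subunit balance was then set beside that of other replication and repair complexes. Within RNase H2, the highest subunit exceeded the lowest by 3.70 ± 0.04-fold in TPM (SD, n = 3). RPA, the single-strand DNA binding complex that stimulates RNase H1, had a spread of 2.62 ± 0.16-fold (SD, n = 3), with Rpa1 highest and Rpa2 lowest. The MRN double-strand break complex (Mre11a, Rad50, Nbn) had 3.24 ± 0.45-fold (SD, n = 3). GINS, a part of the replicative helicase, had 7.37 ± 1.40-fold (SD, n = 3), with Gins3 lowest.

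Of the 9 other complexes, 4 had a wider mean spread than RNase H2 in TPM, and DNA polymerase delta was widest at 15.5 ± 2.78-fold (SD, n = 3). RNase H2 was therefore neither the most even nor the least even of the 10 complexes. Per longest protein-coding transcript its spread rose to 6.43 ± 1.29-fold (SD, n = 3), with Rnaseh2b in place of Rnaseh2a as the highest subunit. On that scale 2 of the 9 had a wider mean spread, GINS at 7.81 and DNA polymerase delta at 16.5. A range can only widen as subunits are added, and 5 of the 9 have 4 or 5 subunits. Among complexes of 3 subunits, CAF-1 alone had a wider mean spread than RNase H2 in TPM, at 13.9-fold. In replicate 1 MRN was wider too, at 3.76-fold against 3.66-fold. Per longest protein-coding transcript none of them had a wider mean, and CAF-1 came nearest at 5.70-fold. That order did not hold in replicate 3, with CAF-1 at 5.08-fold and RNase H2 at 5.07-fold.

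**Figure D4:**
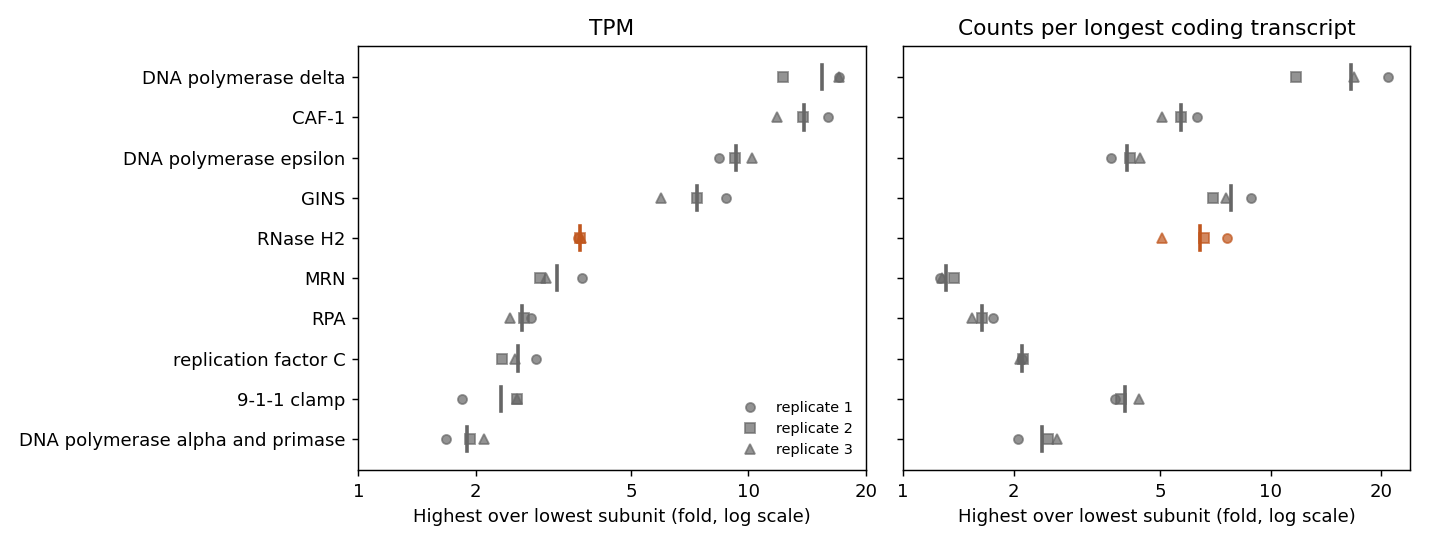
Highest over lowest subunit (fold, log scale) in RNase H2 (orange) and 9 other complexes (grey), from TPM (left) and from counts per longest protein-coding transcript (right); symbols are replicates and bars means. RNase H2 moves from 3.70-fold on the left to 6.43-fold on the right and lies inside the range of the others on both.

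Partner genes of each enzyme were read from lists of pathway members. Of all protein-coding genes, 44.1% had a mean TPM of at least 1 and 33.7% were above Rnaseh1 in TPM in every replicate. Among those with a mean TPM of at least 1, 76.6% were above Rnaseh1. In the list of ribonucleotide excision repair, the pathway that RNase H2 opens, 14 of 14 genes had a mean TPM of at least 1 and 13 of 14 were above Rnaseh1 in every replicate. The list median was 12.97 ± 2.73 TPM (SD, n = 3), beside 5.69 ± 1.36 (SD, n = 3) over all expressed protein-coding genes.

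Pcna, the clamp that Rnaseh2b protein binds, was highest in that list at 90.9, 85.9 and 96.2 TPM in replicates 1, 2 and 3. Fen1, the nuclease that trims the displaced flap, had 9.41 ± 0.441 TPM (SD, n = 3), close to Rnaseh2c. Lig1, the ligase that seals the nick, had 26.1 ± 6.51 TPM (SD, n = 3), close to Rnaseh2b. Top1, a topoisomerase that can also cut at ribonucleotides when RNase H2 is missing, had 12.9 ± 2.84 TPM (SD, n = 3). Pold4, the smallest subunit of DNA polymerase delta, was the exception at 2.26, 2.56 and 1.86 TPM, overlapping Rnaseh1, from 35, 33 and 21 counts.

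Mitochondrial DNA maintenance is the process for which RNase H1 is needed outside the nucleus. All 12 genes of the list had a mean TPM of at least 1, beside 44.1% of all protein-coding genes. Their median was 5.56 ± 1.48 TPM (SD, n = 3). Above Rnaseh1 in every replicate were 10 of 12, beside 76.6% of protein-coding genes with a mean TPM of at least 1. Ssbp1, the mitochondrial single-strand binding protein, was highest at 27.1, 27.5 and 21.7 TPM. Polg, the mitochondrial DNA polymerase, had 17.2, 15.4 and 8.07 TPM, and Polrmt, the mitochondrial RNA polymerase that makes the primers, had 6.67, 3.89 and 3.59 TPM.

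The 2 genes not above Rnaseh1 throughout were Twnk and Polg2. Twnk, the mitochondrial helicase, had 2.31, 1.79 and 1.71 TPM, which overlapped Rnaseh1. Polg2, the accessory subunit of the polymerase, had 1.68, 1.5 and 0.94 TPM and was below Rnaseh1 in 3 of 3 replicates. Both belong with Rnaseh1 at the low end of the expressed range.

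The last list joined the other Aicardi-Goutières genes with the DNA-sensing pathway that responds when such genes fail. Here 4 of 7 genes had a mean TPM of at least 1, beside 44.1% of all protein-coding genes. Above Rnaseh1 in every replicate were 2 of 7, beside 33.7% of all protein-coding genes. Among genes with a mean TPM of at least 1, that was 2 of 4 in the list, beside 76.6% of protein-coding genes. The list's median was 1.89 ± 0.322 TPM (SD, n = 3). The 2 were Samhd1, which degrades deoxynucleotides, at 5.92 ± 1.14 TPM and Adar, which edits double-stranded RNA, at 4.71 ± 2.04 TPM (SD, n = 3). Trex1, a DNA exonuclease, had 0.733 ± 0.115 TPM (SD, n = 3), and Cgas, the cytosolic DNA sensor, had 0.503 ± 0.047 TPM (SD, n = 3). Sting1, its adaptor, had 2.84, 1.61 and 1.81 TPM. Ifih1, a sensor of double-stranded RNA, had 1, 1 and 0 counts, below the floor of 3 counts per library, so its expression was not detectable at this depth.

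**Figure D5:**
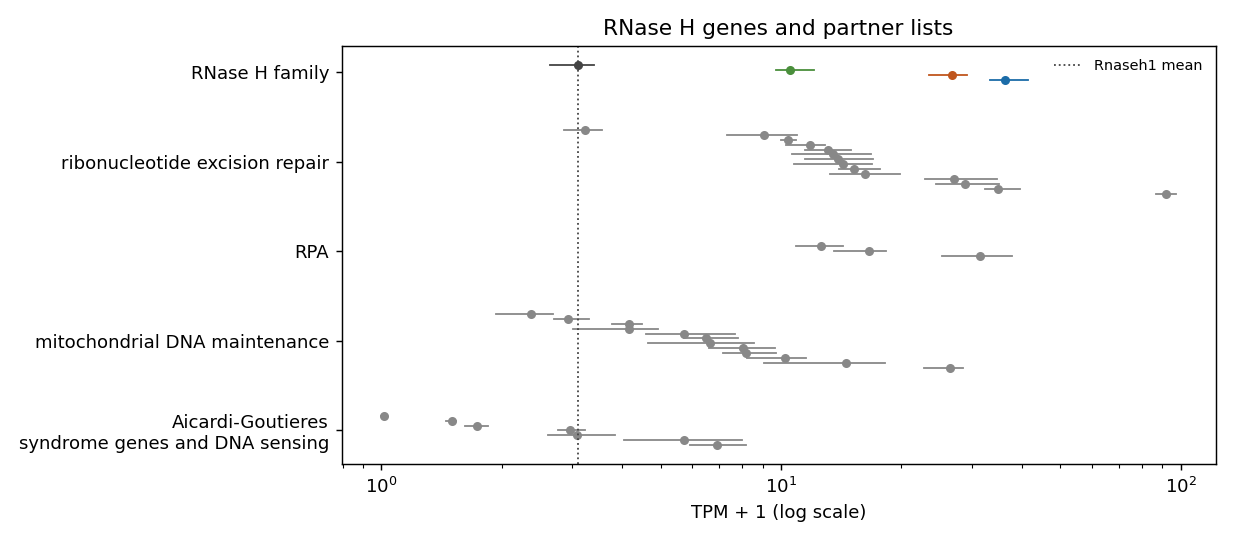
TPM + 1 (log scale) of the 4 RNase H genes (coloured) and of the genes of RPA and the 3 pathway lists (grey); points are means of 3 replicates and lines run from the lowest to the highest replicate. The dotted line is the Rnaseh1 mean, and the points of the repair list lie to its right, Pold4 (2.23 TPM) nearest to it, while the sensing list lies around and to its left apart from Samhd1 and Adar.

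The protein-coding genes nearest to each member in log2(TPM + 1) over the 3 replicates were taken as a description of level, with likeness as Euclidean distance. For Rnaseh1 they were Ddx51 (distance 0.031) and Gca (0.050), and for Rnaseh2a they were Sdhb (0.034) and Nop10 (0.043). For Rnaseh2b they were Syce2 (0.083) and Ssbp1 (0.086), and for Rnaseh2c Dph3 (0.047) and Rce1 (0.065). These distances rest on 3 replicates of one condition, and the values of a replicate share its library.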

How the data were processed

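RNA-seq tables of 3 E14 replicates were read. Per the labels' protocols, rRNA-depleted total RNA went into directional libraries. The submitters' processing notes name STAR, RSEM and mm10; versions, annotation release and strand setting are not given in the sources used here. The authors deposited estimated counts (expected counts, not normalized), TPM (scaled by effective length) and FPKM, which was not used. Names and coordinates came from GENCODE vM21 (GRCm38); 55227 of 55487 IDs matched.

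Levels are deposited TPM. Library totals were 11420425, 6467405 and 5787357; a floor of 3 counts is 0.263, 0.464 and 0.518 CPM. Counts were rounded for edgeR 4.0.16 (TMM, filterByExpr, intercept-only design, trended dispersion, gof, Benjamini-Hochberg over all genes), tested on simulated data: 7, 38, 48 and 50 of 50 genes recovered at 2, 4, 8 and 16-fold, 1 false call among 12596. No 2 replicates agreed within counting noise (chi-square per degree of freedom 6.08 to 26.1). Alternatives changed scaling (DESeq2 1.42.0), length, filters and replicates. R 4.3.3 ran edgeR; scipy 1.17.1 with pandas 2.3.3, numpy 2.4.6 and matplotlib 3.10.9 (Python 3.11.15) did the rest. Named genes were the members, listed genes, neighbours and the 2 nearest in level per member. Members and lists were chosen with earlier results of these data known.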

Additional observations from a re-analysis of the deposited data

How the results depend on the processing

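Across 33 results, 200 alternatives were run, 32 of them chosen after seeing the data; 2 reversed, 45 moved and 153 did neither. Log2 ratios were judged by direction alone, since none can pass its test, so the 153 include ratios whose size fell: Rnaseh2a to Rnaseh1 went from 4.08 to 2.11 and Rnaseh2c to Rnaseh1 from 2.19 to 0.47 per longest protein-coding transcript. Other values counted as moved beyond 1 SD between replicates, and counts beyond 1.5 times. The reversals were the log2 ratio of Rnaseh2a to Rnaseh2b, -1.02 per longest protein-coding transcript and -0.48 per median consensus coding transcript (2981 against 1494 nt and 2044 against 1494 nt). The RNase H2 spread was 4.47-fold per nominal length and 6.43-fold with either of those lengths. For Rnaseh1, Rnaseh2a, Rnaseh2b and Rnaseh2c in that order, TPM rescaled over genes of effective length of at least 100 nt was 5.75, 96.03, 70.4 and 26.0, and over nuclear protein-coding genes 12.5, 210.2, 153.6 and 56.9. CPM per kb was 5.92, 100.3, 73.03 and 27.1 with TMM and 5.91, 100.3, 73.1 and 27.1 with DESeq2 size factors. Without a filter on low values their percentiles were 63.6, 96.4, 94.9 and 85.5. With a mean TPM of at least 5, which leaves Rnaseh1 out, they were 85.3, 79.02 and 39.9 for Rnaseh2a, Rnaseh2b and Rnaseh2c. At that limit 1 of 7 sensing genes, 7 of 12 mitochondrial genes and 13 of 14 repair genes passed. With TPM over genes of at least 100 nt, 6 of 7 sensing, 12 of 12 mitochondrial and 14 of 14 repair genes reached a mean of 1. The share of all protein-coding genes was not counted at either setting, so these counts are not read against a background. Genes varying between replicates numbered 63 to 93 with one replicate left out, lowest without replicate 2, and 89 without replicate 1 and 93 without replicate 3; fewer values are tested there. No RNase H gene was called under any of these fits. Leaving out each replicate moved Rnaseh1 from 1.96 to 2.34 TPM and the log2 ratio of Rnaseh2c to Rnaseh1 from 2.07 to 2.32. Counts under 100 limit Rnaseh1 and Rnaseh2c.

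No paired analysis was possible because the RNA-seq replicates form a single group and have no counterpart to pair with.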

Other observations

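Each RNase H2 subunit gene overlaps a neighbour in the annotation, and Rnaseh1 overlaps none and has no other start within 1000 bp of its own. The outermost start of Rnaseh2a lies 180 bp from that of Prdx2, a peroxiredoxin gene on the opposite strand, and exons of the 2 genes share 177 bp. Prdx2 had 74.2, 61.2 and 68.4 TPM in replicates 1, 2 and 3, above Rnaseh2a in each. Its estimated counts were not whole either (2032.7, 1189.4 and 1289.9), and which genes shared the divided reads was not tested. Gm49661, a coding record on the same strand that shares 339 bp of exons with Rnaseh2a, had 0 counts in every replicate.

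Rnaseh2c and Kat5, the gene of an acetyltransferase on the opposite strand, share 426 bp of exons. Kat5 had 11.6, 10.3 and 10.7 TPM, a mean of 10.9 ± 0.678 (SD, n = 3), close to that of Rnaseh2c. Dleu7 overlaps exons of Rnaseh2b by 66 bp on the opposite strand and had 0.6, 0.47 and 0.38 TPM. The libraries were made with a directional kit, but strand use in the counting is not given in the sources used here. Values of Rnaseh2a, Rnaseh2b and Rnaseh2c are uncertain to that extent, and the part of these overlaps in the levels was not tested. Rnaseh2b, Dleu7, Rnaseh2c and Kat5 had whole estimated counts in every replicate. Counts that were not whole, as given where reads are divided between genes, were seen here in Rnaseh2a and Prdx2 only.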
